A study of Mus musculus with 33 samples.

Results

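The broad MLL3 domains are the widest entries of the MLL3 peak list of growing C2C12 myoblasts, a mouse line of muscle precursor cells. A listed MLL3 peak on chromosomes 1 to 19 was taken as a domain when its right end lay at least 5000 bp from its left end, and 341 of 208538 autosomal MLL3 peaks met that rule (0.164%). The domains were thus chosen by their measured width in the MLL3 list. The series holds 33 samples of these cells, of which the peak lists of MLL3 and of 6 further chromatin proteins were used here. Chromatin immunoprecipitation followed by sequencing (ChIP-seq) recovers DNA fragments held by an antibody, and stretches rich in fragments are listed as peaks. Myoblasts were grown in 10% fetal bovine serum and harvested before they filled the dish, and myotubes, the fused muscle cells, were collected after 4 days in 2% horse serum. Inputs and RNA-seq of cells given small interfering RNAs were not analysed here.

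Menin, Wdr5, MLL1, ING1, LSD1 and MLL3 were mapped in myoblasts, and ING1, LSD1 and Sin3A in myotubes. For ING1 an antibody to the Flag tag was used in puromycin-selected cells that expressed Flag-ING1 ectopically from a retrovirus, whereas antibodies to the native proteins were used for the other factors. Sin3A is treated here as a myotube list, as its sample labels have it, although the series design text places it in myoblasts. MLL1 is named by its antibody, since 1 label of those samples reads Menin. Replicate lists numbered 2 for Menin, MLL1, Sin3A and ING1 in myoblasts and 3 for Wdr5 and ING1 in myotubes, each group with a further combined list from the authors. MLL3 and both LSD1 states had a single list, so neither the domains themselves nor any LSD1 value has a replicate check. Separate cultures are not named for the replicates, so p-values and SDs over them measure a spread that may be technical.

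MLL3 is a methyltransferase that places a single methyl group on lysine 4 of histone H3 (H3K4), a mark of enhancers and of the chromatin around active genes. Wdr5 is a core subunit of all MLL complexes, while Menin and MLL1 belong to a complex better known for trimethylation of H3K4 at promoters. LSD1 removes mono- and dimethyl marks from H3K4, and ING1 binds trimethylated H3K4 and belongs to histone deacetylase complexes built on the scaffold protein Sin3A. The title of the series concerns H3K4 mono-methylation in facultative heterochromatin and how readers of chromatin are distributed.

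The lists hold the ends of each peak and no height, so 2 measures were used here. Coverage is the percentage of bases of a set of regions that lie under a listed peak of another factor, and a domain is said to meet a list when they share at least 1 bp. Since MLL3 width chose the domains, their widths, number and position are described without a test. Depth is unknown for these lists, and a long list covers more of any region, so each coverage is set beside the same list's coverage of the autosomes, taken from the first to the last MLL3 peak of each chromosome (2408 Mb in all).

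The 341 domains spanned 5001 to 21810 bp, with a median of 6031 bp and quartiles of 5481 and 7316 bp, against a median of 635 bp for all autosomal MLL3 peaks. They held 2335 kb, which was 1.43% of the bases under MLL3. Most were close to the limit: 165 were narrower than 6 kb, 70 reached 8 kb and 28 reached 10 kb. Just inside the limit lay chr18:80619230-80624230 (5001 bp), which met no other list, and chr15:12135957-12140963 (5007 bp), with Menin on 66.3%, Sin3A on 8.03% and LSD1 of myotubes on 14.1% of its bases. Just outside lay chr11:108158369-108163356 (4988 bp), with Wdr5 on 7.66%, and chr11:49428143-49433111 (4969 bp), with Wdr5 on 32.5%. A further 427 MLL3 peaks measured 4 to 5 kb, so the limit cuts a continuous range of widths.

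Around the domains MLL3 peaks were dense. In windows of equal width touching a domain on either side, MLL3 covered 46.9% of bases, and in equal windows starting 50 kb beyond each end it covered 26.0%, against 6.77% of the autosomes. When MLL3 peaks up to 1000 bp apart were joined, 3385 regions reached 5 kb, the widest spanned 77142 bp, and 299 of them held a domain, 33 of these more than 1.

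Chromosomes 8, 15 and 11 held most of the domains. Chromosome 8 carried 83 domains, 24.3% of all against 5.78% of MLL3 peaks. Chromosome 15 carried 66 (19.4% against 7.57%) and chromosome 11 carried 48 (14.1% against 9.58%). Together these 3 chromosomes had 57.8% of the domains and 22.9% of the MLL3 peaks. At the low end chromosomes 7 and 16 had 2 domains each, chromosomes 3, 13 and 18 had 3 each, and chromosome 1 had 8, or 0.357 times its share of MLL3 peaks. Chromosome X, which the rule leaves out, had 3 peaks of that width among 9666.

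**Figure D1:**
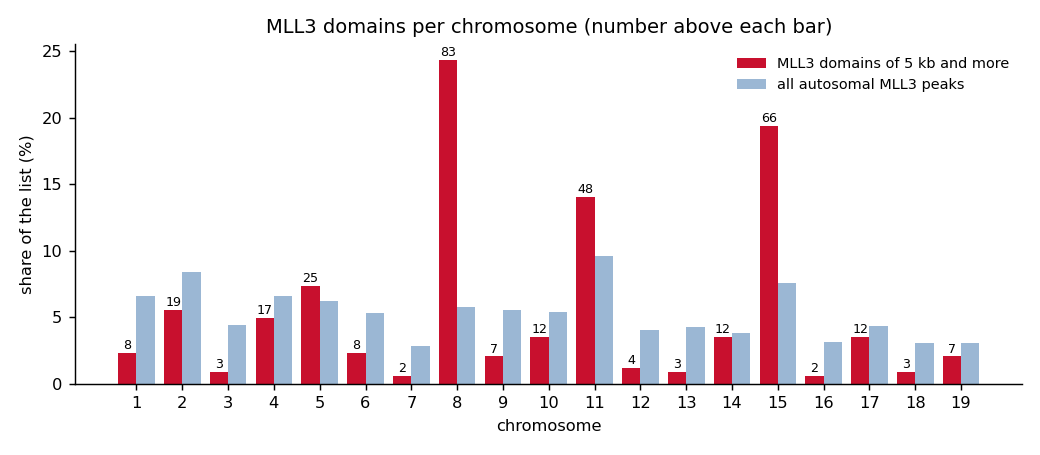
Share of the 341 MLL3 domains (red bars, with the number of domains above each) and of all 208538 autosomal MLL3 peaks (blue bars) on each of chromosomes 1 to 19, in percent. The red bar is far above the blue one on chromosomes 8 (83 domains) and 15 (66), above it on chromosomes 11 (48) and 5 (25), and at or below it on the others.

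The plot of domains by chromosome shows that the surplus was local to few chromosomes, and on chromosome 8 it was local within the chromosome too. Between positions 72482858 and 98309823, a stretch of 25.8 Mb chosen after the positions were seen, lay 80 domains, 23.5% of the total on 1.07% of the autosomal length. The 2 densest 1-Mb windows of the autosomes were there: 19 domains between 86 and 87 Mb and 16 between 89 and 90 Mb. Across all domains the median distance to the nearest other domain was 96.6 kb, with 47 domains closer than 1 kb to another, 172 (50.4%) closer than 100 kb and 77 farther than 1 Mb away.

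Every one of the 9 lists had more peaks per Mb in the stretch of chromosome 8 than on the other autosomes, from 1.68 times for Menin and 1.82 times for MLL3 to 3.06 and 3.72 times for LSD1 in myoblasts and myotubes. Yet the 80 domains of the stretch were less covered than the other 261 by each of the 8 lists. Menin covered 15.1% of the first and 26.1% of the second, and LSD1 of myotubes 10.2% and 20.9%. ING1 of myoblasts covered 0.139% and 2.27% and met 2 of 80 against 36 of 261. By domains met Sin3A went the other way, with 18 of 80 (22.5%) against 42 of 261 (16.1%).

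Across the domains, Menin and the LSD1 list of myotubes covered far more than the other 6 lists. Menin covered 23.3% of domain bases against 2.83% of the autosomes (8.25 times). LSD1 of myotubes covered 18.3% against 0.541% (33.8 times), while LSD1 of myoblasts covered 0.632% against 0.0804% (7.85 times). The remaining lists covered 0.865% (MLL1), 1.68% (ING1 of myotubes), 1.75% (ING1 of myoblasts), 2.31% (Sin3A) and 6.76% (Wdr5), which was 3.28, 5.29, 6.23, 4.84 and 3.60 times their coverage of the autosomes.

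**Figure D2:**
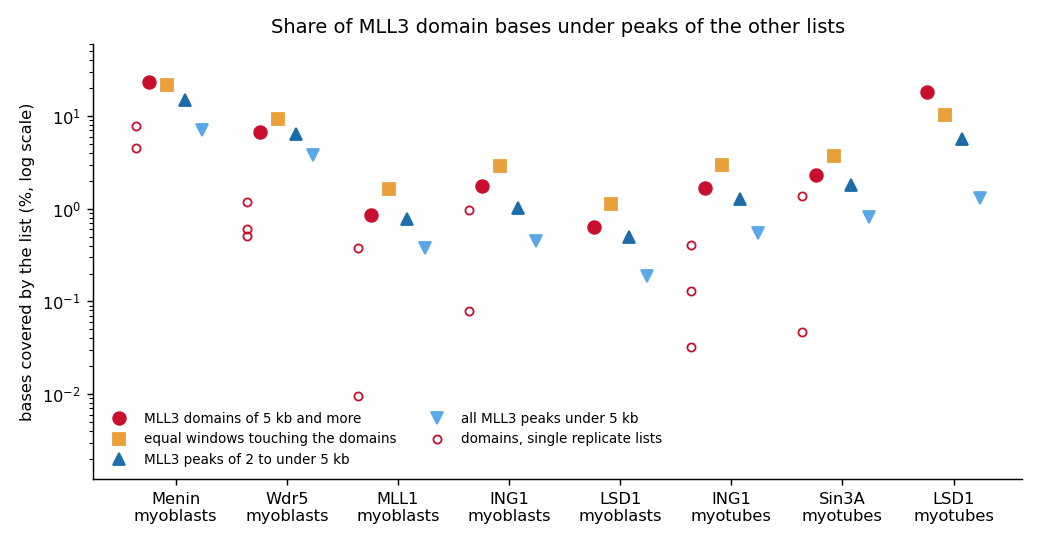
Percentage of bases (log axis) covered by each of the 8 lists on the x axis, for the MLL3 domains (filled red circles), equal windows touching them (orange squares), MLL3 peaks of 2 to under 5 kb (dark blue triangles) and all MLL3 peaks under 5 kb (light blue triangles), with single replicate lists on the domains as open circles. Domains are above both sets of narrower peaks in all 8 lists, and above the touching windows for Menin (23.3% against 21.8%) and LSD1 of myotubes (18.3% against 10.2%).

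Whether wider MLL3 peaks carry more of the other factors than narrower ones was tested over the 8 lists, which the width rule did not use. All 8 covered the domains more than the 208197 MLL3 peaks under 5 kb, with a mean log2 ratio of coverage of 1.80 (SD 0.88, n = 8 lists; exact two-sided sign-flip permutation p = 0.0078, the smallest that 8 lists can give). The ratio was 13.8 for LSD1 of myotubes, 3.91 for ING1 of myoblasts, 3.40 for LSD1 of myoblasts, 3.30 for Menin, 3.11 for ING1 of myotubes, 2.83 for Sin3A, 2.28 for MLL1 and 1.79 for Wdr5. Against the 6031 MLL3 peaks of 2 to under 5 kb the mean log2 ratio was 0.55 (SD 0.51; 8 of 8 lists higher; exact sign-flip p = 0.0078), and it ran from 1.06 times for Wdr5 to 3.21 times for LSD1 of myotubes. The lists share sites, so they are not independent of one another and the p-value describes these lists.

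The result depended on which surroundings were used. Against equal windows starting 50 kb beyond each end, the domains were higher for 8 of 8 lists, with a mean log2 ratio of 0.68 (SD 0.87; exact sign-flip p = 0.0078). There the ratio of coverage ran from 1.01 for MLL1, which was nearly level, and 1.11 for Wdr5 to 2.40 for Menin and 6.2 for LSD1 of myotubes. Against the windows that touch the domains, the domains were higher for 2 of 8 lists, with a mean log2 ratio of -0.44 (SD 0.61; exact sign-flip p = 0.117). LSD1 of myotubes stood at 1.80 times its coverage of the touching windows and Menin at 1.07 times. The other lists stood between 0.532 times for MLL1 and 0.724 times for Wdr5. Against 5954 narrower MLL3 peaks within 50 kb of a domain, a comparison added after the data were seen, the mean log2 ratio was 0.51 (8 of 8 lists higher; exact sign-flip p = 0.0078). There LSD1 of myotubes was 3.28 times higher, ING1 of myoblasts 1.58 and Menin 1.53, whereas LSD1 of myoblasts (1.07), Wdr5 (1.04) and MLL1 (1.02) had nearly equal coverage on the domains and on the peaks around them.

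Domain by domain, LSD1 of myotubes alone was higher inside more often than outside. LSD1 of myotubes covered 156 domains more than their own touching windows and 88 less, with 97 at 0 in both. For Menin the counts were 138 and 139. For Wdr5 they were 88 and 190, for Sin3A 40 and 117, for ING1 of myoblasts 25 and 91, for ING1 of myotubes 23 and 98, for MLL1 23 and 71, and for LSD1 of myoblasts 22 and 65. By chromosome, LSD1 of myotubes covered the domains more than their touching windows on 18 of 19 autosomes, Menin on 12 and Wdr5 on 3.

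The replicate lists were shorter than the combined ones and covered less. Menin covered 7.91% of domain bases in replicate 1 and 4.49% in replicate 2 (6.20% ± 2.42, SD, n = 2), where the combined list covered 23.3%, and the union of both replicates covered 9.74%, so most of the Menin bases on the domains lay outside the replicate lists. Relative to the autosomes the 2 replicates and the combined list were alike, at 8.63, 7.01 and 8.25 times. Wdr5 covered 1.19%, 0.506% and 0.598% in its 3 replicates (0.765% ± 0.372, SD, n = 3), which was 4.16 ± 0.296 times the autosomes (SD, n = 3).

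MLL1 and Sin3A differed sharply between replicates. MLL1 covered 0.373% in replicate 1 and 0.00942% in replicate 2, and met 16 domains and 1. Sin3A covered 1.38% and 0.0473% and met 41 domains and 2. In both cases the second list was short, with 460 and 426 autosomal peaks.

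Of the 14 replicate lists, 13 covered the domains more than the narrower MLL3 peaks, the exception being MLL1 replicate 2 at 0.767 times. All 14 covered the domains less than the touching windows. That included Menin, at 7.91% against 8.49% in replicate 1 and 4.49% against 5.81% in replicate 2, so the small surplus of the combined Menin list inside the domains was absent from its replicates.

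The wider the class of MLL3 peaks, the larger was the part of their bases under LSD1 of myotubes. LSD1 of myotubes covered 0.391% of the bases of MLL3 peaks under 0.5 kb, 4.02% at 2 to 3 kb, 11.0% at 4 to 5 kb, 14.8% at 5 to 6 kb, 18.9% at 6 to 8 kb and 22.1% at 8 kb and more. Menin went from 4.62% to 18.5% at 4 to 5 kb and lay between 21.8% and 24.9% above 5 kb. Wdr5 was 2.83% in the narrowest class, 7.43% at 4 to 5 kb and 5.66% at 8 kb and more. Within the 341 domains Spearman's rho between width and coverage was 0.14 for LSD1 of myotubes and between -0.01 and 0.08 for the other lists, across domains that share 1 MLL3 library.

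**Figure D3:**
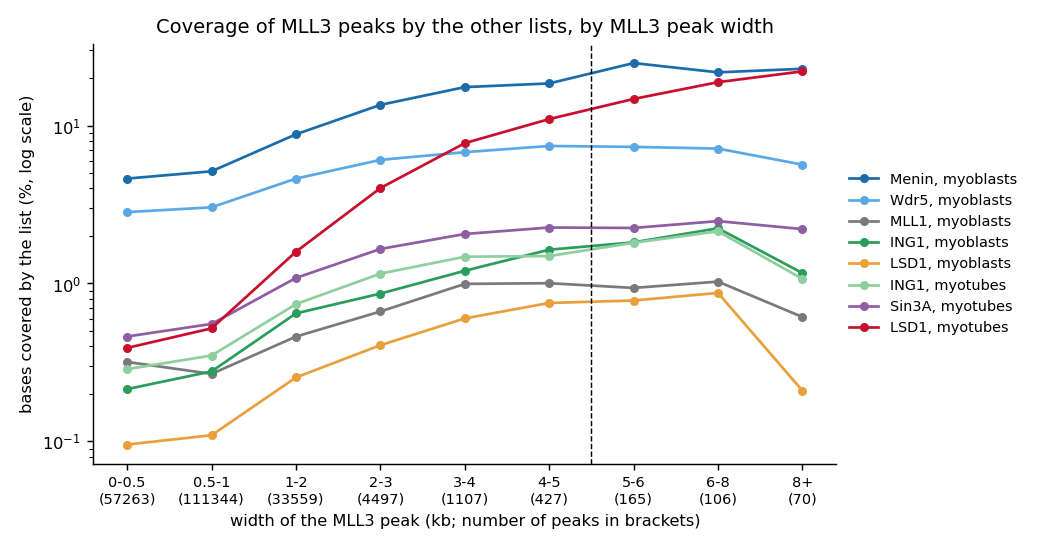
Percentage of the bases of MLL3 peaks (log axis) under each of the 8 lists, by class of MLL3 peak width in kb, with the number of MLL3 peaks in brackets and a dashed line at 5 kb. LSD1 of myotubes climbs from 0.391% to 22.1% and reaches Menin (22.9%) in the widest class, while LSD1 of myoblasts falls to 0.209% there.

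A domain can meet a list because it is wide, so shares of domains met were read beside the same share over all MLL3 peaks and over those of 2 to under 5 kb. Menin met 210 of 341 domains (61.6%, exact Clopper-Pearson 95% interval 56.2 to 66.8), against 9.32% of all autosomal MLL3 peaks and 33.1% of the 2 to 5 kb peaks. Wdr5 met 153 (44.9%, 39.5 to 50.3), against 6.29% and 21.8%. MLL1 met 28 (8.21%, 5.53 to 11.6), against 0.731% and 3.28%. These intervals cover counting error only, and they treat neighbouring domains as separate.

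For the proteins linked to removal of histone marks the shares were as follows. LSD1 of myotubes met 190 domains (55.7%, 50.3 to 61.1), against 1.76% of all MLL3 peaks and 15.9% of the 2 to 5 kb peaks. LSD1 of myoblasts met 26 (7.62%, 5.04 to 11.0), against 0.38% and 2.64%. Sin3A met 60 (17.6%, 13.7 to 22.1), against 1.37% and 6.91%. ING1 met 38 domains in myoblasts (11.1%, 8.01 to 15.0), against 0.719% and 3.55%, and 37 in myotubes (10.9%, 7.76 to 14.6), against 0.855% and 4.28%.

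Few of these meetings stood in every replicate, and few combined peaks of the autosomes did so either. Combined autosomal peaks that overlapped a peak of each replicate list numbered 8641 of 68934 for Menin and 2571 of 58123 for Wdr5. They numbered 415 of 13845 for Sin3A, 338 of 8114 for ING1 of myoblasts, 324 of 8795 for MLL1 and 78 of 9570 for ING1 of myotubes. Domains that met a combined peak overlapping a peak of each replicate list, inside the domain or beyond its edge, numbered 74 for Menin (21.7%), 21 for Wdr5, 4 for ING1 of myoblasts, 4 for Sin3A, 2 for MLL1 and 1 for ING1 of myotubes. The union of the replicate lists met 40.2% of domains for Menin and 12.3% for Wdr5, so the shares of the combined lists rest in part on peaks that no replicate list holds. No matching shares over all MLL3 peaks are given here. These counts therefore do not show whether domains met replicated peaks more often than other MLL3 peaks did.

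Most domains carried few factors. No list met 53 domains (15.5%, against 85.1% of all MLL3 peaks and 48.4% of those of 2 to 5 kb), 1 list met 84, 2 lists met 95 and 3 lists met 56. From 4 to 6 lists the counts were 20, 6 and 6, and then 14 domains met 7 lists and 7 met all 8 (2.05%, against 0.0523% and 0.531%). Menin with LSD1 of myotubes was the most frequent combination (52 domains), followed by these and Wdr5 (38), Menin alone (30), Wdr5 alone (28) and LSD1 of myotubes alone (22). The 7-list combination that lacks MLL1 held 11 domains. For 1 to 7 lists and for the combinations no matching counts over all MLL3 peaks are given here, so these counts describe the domains only.

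In all, 254 domains (74.5%, against 97.8% of all MLL3 peaks and 90.4% of those of 2 to 5 kb) met none of ING1 in either state, Sin3A, MLL1 and LSD1 of myoblasts. LSD1 of myotubes covered 13.5% and Menin 17.1% of these 254, against 30.7% and 39.5% of the 87 domains that met at least 1 of the 5 lists. LSD1 of myotubes met 123 of the 254, which was 36.1% of all domains, against 1.34% of all MLL3 peaks and 12.5% of those of 2 to 5 kb. LSD1 peaks of myotubes thus lay both in domains that met at least 1 of these 5 lists and in domains that met none of them.

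Menin and LSD1 of myotubes often lay on the same domains. Both met 149 domains (43.7%, against 0.801% of all MLL3 peaks and 8.84% of those of 2 to 5 kb). Menin met 61.6% of domains, 9.32% of all MLL3 peaks and 33.1% of those of 2 to 5 kb. For LSD1 of myotubes those shares were 55.7%, 1.76% and 15.9%. Relative to the shares of each list, joint meetings were less frequent among domains than among all MLL3 peaks or those of 2 to 5 kb. Menin covered 30.0% of the bases of the 190 domains with LSD1 of myotubes and 13.9% of the 151 without it. Within the domains 38.1% of the bases under LSD1 of myotubes were also under Menin, close to the 33.2% in narrower MLL3 peaks. In the other direction 29.8% of Menin bases in the domains were under LSD1 of myotubes, against 6.18% in narrower MLL3 peaks. LSD1 of myotubes covered 18.3% of all domain bases and 1.32% of all bases of narrower MLL3 peaks, and Menin 23.3% and 7.08%. Relative to these coverages, the 2 lists shared fewer bases in the domains than in narrower MLL3 peaks. At least 50% of a domain was covered by Menin in 65 cases (19.1%, against 5.84% and 12.5%) and by LSD1 of myotubes in 42 (12.3%, against 0.682% and 2.98%). Any 1 of the other 6 lists did so in 9 domains (2.64%, against 3.62% and 3.63%).

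LSD1, the H3K4 demethylase, was listed on far more domains in myotubes than in myoblasts. In myoblasts 33 of 4419 autosomal LSD1 peaks lay on a domain (0.747%), and in myotubes 444 of 16361 did (2.71%). The median width of the myotube peaks was 756 bp on domains and 624 bp elsewhere. They met 122 domains more than once and 30 domains at least 4 times, with up to 11 peaks in 1 domain. A wide region can hold more peaks by its size, and no matching counts over other MLL3 peaks are given here. Coverage of the domains was 17.6 percentage points higher in the myotube list (18.3% against 0.632%). Over the 190 domains met, the median coverage was 25.1% and the highest 96.5%. In myoblasts the highest was 41.6%.

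The myotube list was the longer one, so the comparison was repeated at equal length. Shortened to its 4419 widest peaks, it still covered 12.3% of domain bases, met 112 domains (32.8%) and stood at 46.1 times its coverage of the autosomes. For the shortened list no share of other MLL3 peaks met is given here. Each peak kept was at least 850 bp wide, while the myoblast peaks had a median of 432 bp on domains and 392 bp elsewhere. Equal numbers of peaks were thus not equal numbers of bases. Of the domains, 167 met LSD1 in myotubes alone (49.0%, against 1.58% of all MLL3 peaks and 14.2% of those of 2 to 5 kb). In both states 23 met it (6.74%, against 0.179% and 1.66%). In myoblasts alone 3 met it, and that share of 0.880% lay above the 0.201% of all MLL3 peaks and below the 0.978% of those of 2 to 5 kb. MLL3 was mapped in myoblasts alone, so the comparison sets LSD1 of myotubes on domains drawn in the other state. With 1 list per state there is no test of the difference, and depth and state cannot be told apart.

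The 26 domains with LSD1 in myoblasts were crowded ones. All 26 met Menin and Wdr5, 25 met ING1 of myotubes (96.2%), 23 met Sin3A (88.5%) and 23 met LSD1 of myotubes (88.5%). MLL3 peaks of any width with LSD1 in myoblasts were crowded as well: of 792, 91.0% met Menin, 89.6% Wdr5, 81.4% ING1 of myotubes, 84.3% Sin3A and 47.1% LSD1 of myotubes. Among the 159 such peaks of 2 to 5 kb, the share with LSD1 of myotubes was 62.9%. Across the 33 domains with at least 5 lists, Menin covered 53.5%, LSD1 of myotubes 38.6%, Wdr5 25.01%, Sin3A 15.9% and ING1 of myotubes 15.4%. These domains were not wide for the group, with a median of 6308 bp and a maximum of 10355 bp.

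ING1, the reader of trimethylated H3K4, gave no detectable difference between the states on the domains. Coverage was 0.0797% and 0.976% in the 2 myoblast replicates and 0.129%, 0.405% and 0.0324% in the 3 myotube replicates. The myotube values lay between the 2 myoblast values except for replicate 3, which was below both. The means were 0.528% ± 0.634 (SD, n = 2) and 0.189% ± 0.194 (SD, n = 3), a difference of -0.339 percentage points (exact two-sided permutation p = 0.6, where 10 regroupings allow no p below 0.2). Without myoblast replicate 2 the difference was 0.109 percentage points, so its direction rests on that list.

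Relative to the autosomes ING1 covered the domains 7.18 ± 1.66 times (SD, n = 2) in myoblasts and 7.05 ± 5.13 times (SD, n = 3) in myotubes. In the combined lists 28 domains met ING1 in both states, 10 in myoblasts alone and 9 in myotubes alone. The myoblast list thus met 80.9% of the 47 domains with ING1 and the myotube list 78.7%. Among the 301 MLL3 peaks of 2 to 5 kb with ING1 those shares were 71.1% and 85.7%. Among all 2292 MLL3 peaks with ING1 they were 65.4% and 77.8%. Of these 47 domains, 42 met Menin, 37 met Wdr5, 37 met LSD1 of myotubes, 34 met Sin3A and 25 met LSD1 of myoblasts. As shares these were 89.4%, 78.7%, 78.7%, 72.3% and 53.2%, against 86.4%, 85.05%, 47.8%, 75.7% and 51.8% of the 301 MLL3 peaks of 2 to 5 kb that met ING1 in either state. Of the 5, the share with LSD1 of myotubes was the one that lay well apart. That list met 55.7% of all domains and 15.9% of all MLL3 peaks of 2 to 5 kb, so a gap was there whether or not ING1 was met. The difference was not tested.

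The lists differed in where they lay within the domains. LSD1 of myotubes was highest deep inside: it covered 18.3% of bases 2 to 2.5 kb in from the edge, 13.9% of the outermost 500 bp and 8.61% of the first 500 bp outside. It was 6.44% at 7.5 to 10 kb and 2.20% at 50 to 100 kb outside. ING1 of myoblasts did the reverse, with 0.926% at 2 to 2.5 kb inside, 4.00% in the outermost 500 bp and 4.99% just outside. ING1 of myotubes (1.00%, 3.86% and 4.57%) and Sin3A (1.02%, 4.76% and 5.46%) had the same shape.

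LSD1 of myoblasts resembled ING1 and not LSD1 of myotubes, with 0.256% at 2 to 2.5 kb inside, 1.86% in the outermost 500 bp and 1.45% just outside. Inside the domains its values rest on only 33 peaks, on 26 domains, of 1 list. Wdr5 went from 7.04% to 8.85% and 10.4% over the same 3 places. Menin was nearly level, at 21.4%, 24.6% and 21.6%, and MLL1 was 1.06%, 1.36% and 1.36% with a maximum of 2.18% at 1 to 2 kb outside. MLL3 itself fell to 25.2% in the first 500 bp outside and was 47.3% in the next 500 bp, which follows from the way a listed peak ends. No test was made of these profiles, in which neighbouring bins share peaks.

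**Figure D4:**
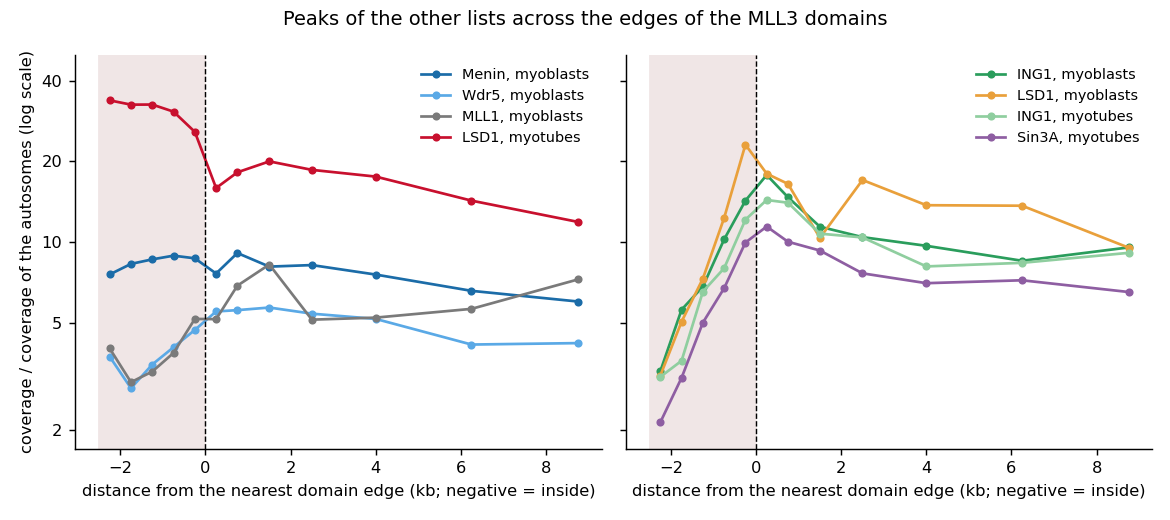
Coverage of bases by each list divided by that list's coverage of the autosomes (log axis), against distance from the nearest domain edge in kb, with the inside of the domains shaded at negative distances. LSD1 of myotubes (left, red) falls from 33.8 times at 2 to 2.5 kb inside to 15.9 times just outside, whereas ING1 of myoblasts (right, dark green) goes from 3.31 to 17.8 times and LSD1 of myoblasts (right, orange) peaks at 23.1 times in the outermost 500 bp. The LSD1 list of myoblasts had only 33 peaks on the domains.

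The widest domains are described here one by one. The 2 widest, chr9:120843629-120865438 (21810 bp) and chr2:27764966-27784046 (19081 bp), held 10 and 11 LSD1 peaks of myotubes and Menin on 14.4% and 10.4% of their bases. On chromosome 9 the only further factor was ING1 of myoblasts on 1.93%, at the domain's edge. Next came chr8:86097093-86114955 (17863 bp), with LSD1 of myotubes on 22.7% and Sin3A on 5.21%. The fourth was chr15:66734361-66750489 (16129 bp), with LSD1 of myotubes on 22.6%, Menin on 15.7% and MLL1 on 3.79%. On the fifth, chr8:87246074-87261568 (15495 bp), Menin covered 16.0%, Sin3A 10.8% and LSD1 of myotubes 13.1%. Menin covered 5.83% and 2.07% of the domain on chromosome 9 in its 2 replicates and 0% of that on chromosome 2 in both. On the third domain, where the combined Menin list had no peak, Menin replicate 1 covered 3.10%.

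Other wide domains differed from these. On chr15:77616004-77630807 (14804 bp) Menin covered 93.3%, LSD1 of myotubes 30.3% and ING1 of myoblasts 11.1%. The domain at chr15:36705294-36719608 (14315 bp) was covered by LSD1 of myotubes on 96.1% and by Menin on 77.4%, with MLL1 on 6.23% and Sin3A on 10.2%. By contrast, LSD1 of myotubes was the only list on chr8:86428635-86443114 (14480 bp), on 7.42% of it. Menin covered 18.6% and LSD1 of myotubes 14.3% of chr11:117137080-117149486 (12407 bp), and chr8:89746235-89758632 (12398 bp) met none of the 8 lists. The 10 widest domains thus ran from bare to almost fully covered.

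The domains most covered by LSD1 of myotubes mostly carried Menin too. The highest was chr15:96521455-96527234 (5780 bp), with LSD1 of myotubes on 96.5% and Menin on 94.3%. It was followed by chr19:5794595-5801914 (7320 bp), which met all 8 lists: LSD1 of myotubes covered 96.4%, Menin 97.0%, ING1 of myotubes 67.7%, ING1 of myoblasts 54.0%, Sin3A 50.4%, Wdr5 32.7%, MLL1 31.2% and LSD1 of myoblasts 24.0%. At this domain both ING1 replicates of myoblasts had peaks (9.23% and 25.5%), as had myotube replicates 1 and 2 (7.68% and 29.5%) and both Menin replicates (69.4% and 43.2%). On chr11:59031178-59041368 (10191 bp) LSD1 of myotubes covered 93.0% in the company of 6 other lists. On chr17:34249216-34255460 (6245 bp), again with all 8 lists, it covered 92.9%, Menin 81.9%, Wdr5 61.1% and ING1 of myoblasts 31.7%. Those last 2 domains also met the most combined ING1, Wdr5 or MLL1 peaks that overlap a peak of each replicate list, 2 each. The replicate peaks may lie beyond a domain's edge: of these 3 factors, ING1 of myoblasts alone had a peak of each replicate inside the domain on chromosome 11, and Wdr5 alone inside that on chromosome 17. With 1 such combined peak each, the next widest were chr19:6365248-6375742 (10495 bp), where LSD1 of myotubes covered 51.1%, Menin 40.8% and Wdr5 11.7%, chr9:59504454-59513033 (8580 bp), with 7 lists and Menin on 80.6%, and chr11:116695589-116704103 (8515 bp), with 6 lists and Sin3A on 23.5%. Inside the first of these 3, all replicate lists covered 0%, so its replicate support lay outside the domain.

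Domains filled by Menin had LSD1 of myotubes at very different levels. Menin covered 100% of chr18:56873895-56879006 (5112 bp) and of chr8:98263897-98269006 (5110 bp), where LSD1 of myotubes covered 0% and 12.3%. It covered 97.6% of chr4:134822183-134828163 (5981 bp), with all 8 lists and Sin3A on 44.9%. On chr11:97673152-97678609 (5458 bp) it covered 97.4% with Wdr5 on 36.2% and no LSD1 of myotubes, and on chr15:77636400-77642419 (6020 bp) 97.2% with LSD1 of myotubes on 86.6%. Both Menin replicates had peaks on each of these 5 domains, from 14.1% to 84.0% of their bases.

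Among the 7 domains with all 8 lists, the widest was chr8:89261564-89269153 (7590 bp), with LSD1 of myotubes on 66.2% and Menin on 63.8%. Its ING1, MLL1 and Sin3A peaks lay at 1 end of the domain, while the LSD1 peaks of myotubes ran through it. The domain at chr2:117938040-117944075 (6036 bp) had ING1 on 38.8% in myoblasts and 40.7% in myotubes, MLL1 on 34.4% and LSD1 of myotubes on 33.5%.

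**Figure D5:**
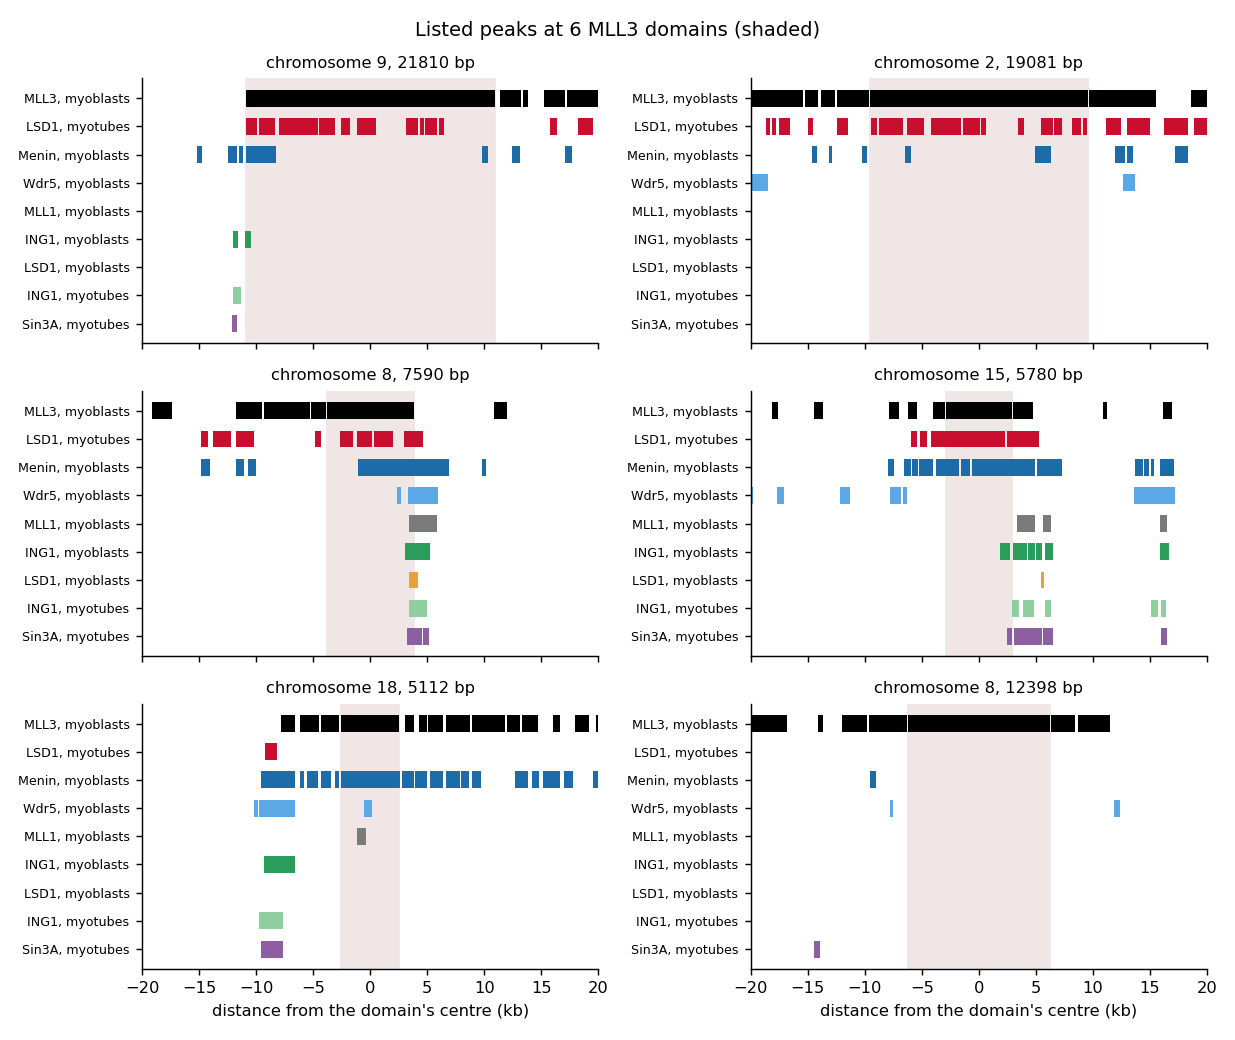
Listed peaks (blocks) of MLL3 and the 8 other lists within 20 kb of the centres of 6 domains, with the domain shaded and the distance from its centre in kb on the x axis. LSD1 of myotubes (red) runs through the domains of 19081 and 5780 bp. On the domain of 21810 bp it runs from the left edge to 6.50 kb right of the centre. ING1, Sin3A and MLL1 gather at or beyond 1 edge of the domains of 7590 and 5780 bp, Menin fills the domain of 5112 bp, and the domain of 12398 bp on chromosome 8 holds MLL3 alone.

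Menin had broad peaks of its own. Of 675 autosomal Menin peaks of 5 kb and more, 21 met a broad MLL3 domain (3.11%, against 0.664% of all 68934 autosomal Menin peaks), and 18 of the 341 MLL3 domains met one of them (5.28%, against 0.272% of all MLL3 peaks and 1.41% of those of 2 to 5 kb). With the replicate lists of Menin joined in place of the combined list, 219 peaks reached 5 kb and 2 MLL3 domains met one. Most of the 210 domains that met Menin therefore met Menin peaks under 5 kb.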

How the data were processed

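Per the file headers, the deposited values are peak boundaries in bp, the left and right end of each peak, with no count, height or score. Per the submitters' processing notes, the authors used Bowtie 0.12.9, SAMtools 0.1.19 and bedtools 2.17.0 with the mouse builds mm9 and NCBIM37. For the peak calling, its threshold and the combining of replicates, the method is not given in the sources used. Coordinates are mm9, with starts counted from 1. Gene names and sequences need an mm9 annotation, which was not used here.

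Sample titles gave the groups and replicate numbers. Overlaps, coverages and exact permutation tests were computed with Python 3.11.15, numpy 2.4.6 and scipy 1.17.1, plots were drawn with matplotlib 3.10.9, and the interval functions were tested on simulated data. The 8 lists were compared by a two-sided sign-flip test with a threshold of 0.05. ING1 replicates were compared by permutation between states. Named domains were the 10 widest, the 5 most covered by LSD1 of myotubes, the 5 most covered by Menin, the 5 with the most lists and the 5 with the most replicate-supported ING1, Wdr5 or MLL1 peaks. The members and lists were chosen with earlier results of these data known.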

Additional observations from a re-analysis of the deposited data

How the results depend on the processing

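The surplus of the 8 lists on the domains over narrower MLL3 peaks (mean log2 ratio 1.80) kept its direction and its side of 0.05 in 19 of 20 alternatives. Among these 20, each of the 8 lists was left out in turn. With all 8 ratios positive, leaving out 1 list could give no other outcome (exact sign-flip p = 0.0156), so those alternatives add no support. Against the windows touching the domains the ratio was -0.44 (exact sign-flip p = 0.117), and the p-values of the 20 ran from 0.0078 to 0.117. Menin covered 23.3% of domain bases in the combined list, 9.74% in the union of its replicates, 20.2% with the wider 50% of each list, 10.03% with lists of equal length, 26.1% without the stretch of chromosome 8, and 4.49% to 7.91% when 1 replicate was left out. With MLL3 peaks up to 1000 bp apart joined, coverage was 11.9% for Menin and 4.48% for LSD1 of myotubes, and 44.6% of the joined regions lay on chromosomes 8, 11 and 15. Of the domains as listed, 44.8% lay there without the stretch of chromosome 8. With lists of equal length LSD1 of myotubes covered 12.3%. The difference between LSD1 states (17.6 percentage points) was 11.7 with the shortened myotube list and 25.9 as a difference in multiples of the autosomal coverage.

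Menin met 40.2% of domains as a union of replicates, 21.7% with peaks in every replicate and 50.4% with the wider 50% of the list, where LSD1 of myotubes met 43.1%. Broad MLL3 domains that met broad Menin peaks numbered 61 at a limit of 4 kb, 9 at 6 kb and 2 with the union of replicates. The ING1 difference was -0.787 to 0.109 percentage points when 1 replicate was left out, the positive value being that without myoblast replicate 2. With a replicate block over replicates 1 and 2 it was -0.260 (exact permutation p = 1), and nothing in the labels says that equal numbers pair the samples.

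The lists hold no read counts, so depth limits every value in an unknown degree. The cause of the changes listed here was not tested.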

Other observations

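The LSD1 list of myotubes held 63 autosomal peaks of 5 kb and more. Of these, 6 met a broad MLL3 domain (9.52%, against 2.71% of all 16361 LSD1 peaks of myotubes), and the domains covered 7.96% of their bases against 3.28%. Any MLL3 peak was met by 15 of the 63 (23.8%, against 25.6%), and MLL3 peaks of all widths covered 12.3% of their bases against 19.6%. LSD1 peaks under 5 kb met 189 of the 190 domains with LSD1 of myotubes.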
